A study of Mus musculus with 3 samples.

Results

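Trib1, Trib2, Pim1, Pim3, Sgk1, Plk2 and Plk3 were followed in brown adipocytes at 0, 1 and 2 h after the β-adrenergic agonist isoproterenol (ISO). These 7 genes encode Tribbles pseudokinases, PIM kinases and other serine/threonine kinases, the last grouped under the name of fast-induced kinases. The genes were chosen by name, and the set was selected on the rises of Trib1 and Pim3 on these same arrays, so the changes at 1 and 2 h describe the set and support nothing. Every probe set annotated to exactly 1 of the 7 symbols was taken, which gave 14 of the 45101 probe sets on the array. A gene was read where a probe set reached a signal of 100 on 1 or more arrays. This held for 5 of the 7 genes and for 7 of their 14 probe sets, among 6896 genes read of 18194 with a symbol. Trib2 and Plk3 stayed below 100 on all arrays and are described separately.

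The cells were iBATs, a line derived from stromal vascular cells of C57BL/6 pup interscapular brown fat that was immortalized with SV40 large T antigen and then differentiated with insulin and indomethacin. Labelled RNA from day 8 of differentiation was hybridized to 1 Affymetrix array for each of 0, 1 and 2 h of ISO, with 3 samples in all. The cells at all times shared the same differentiation and an insulin-containing maintenance medium, and they came from a single line. Since each time point has 1 array, no replicate error exists and no p-value is given. A gene is called higher or lower only by size, at 1.74-fold (a log2 ratio of 0.8 in either direction). Ratios at 1 h and at 2 h share the 0 h array. Of the adipocyte markers with a probe set named here, 7 of 7 reached 100, with Fabp4 highest at 7871.8, and their summed signal was 18954.7, 22158.8 and 21247.9 at 0, 1 and 2 h. Ucp1, which makes brown adipocytes thermogenic, was the only one of these past 1.74-fold, with signals of 1485.7, 3673.2 and 4166.1. Of the preadipocyte and fibroblast markers 6 of 8 reached a signal of 100, and the sum of all 8 was 10196.1, 10396.9 and 9425.6. None of 6 macrophage and leukocyte, 5 endothelial and 5 muscle markers reached 100. The summed signal of the macrophage and leukocyte markers was 131.2, 130.9 and 210.0, in which Cd14 had 34.6, 41.8 and 93.2. The endothelial markers summed to 21.0, 14.9 and 14.1 and the muscle markers to 140.7, 122.8 and 116.8. The part of these movements in the other results was not tested. In such bulk RNA, fewer cells of a type and less RNA per cell cannot be told apart.

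Tribbles proteins have a kinase fold with little or no catalytic activity. They act as scaffolds that bring substrates such as C/EBPα to the ubiquitin ligase COP1, and they also bind MAP kinase kinases. PIM kinases are active as soon as they are made, so that their amount is set largely by synthesis and turnover of their short-lived mRNA and protein. SGK1 is named for its induction by serum and glucocorticoids and needs phosphorylation through mTORC2 and PDK1 for activity. PLK2 and PLK3 are the polo-like kinases known from early growth-factor responses, whereas PLK1 and PLK4 serve mitosis and centriole duplication.

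The sequence before the transcription start is shown for Pim3, a gene that was higher after ISO, for Plk3, which had the same direction at low signal, and for Plk2, which was not past 1.74-fold at either time. These windows were picked because they differ in the core of the cyclic AMP response element, the DNA element read by CREB, and are examples only. RefSeq entries for build GRCm38.p6 matched 6 of the 7 genes with 12 windows, and Trib1 is the gene without an entry. Each sequence holds the 250 bases 5′ of the start on the gene's own strand. Capitals mark TGACG, the core of the element, and CCAAT, the box bound by NF-Y, each on either strand.

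Pim3, chr15:88861944-88862193, plus strand: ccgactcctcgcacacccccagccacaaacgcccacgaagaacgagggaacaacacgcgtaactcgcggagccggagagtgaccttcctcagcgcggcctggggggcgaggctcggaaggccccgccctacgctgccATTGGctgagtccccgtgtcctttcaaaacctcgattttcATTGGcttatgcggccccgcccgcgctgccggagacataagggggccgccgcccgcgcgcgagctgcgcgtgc

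Plk3, chr4:117133964-117134213, minus strand: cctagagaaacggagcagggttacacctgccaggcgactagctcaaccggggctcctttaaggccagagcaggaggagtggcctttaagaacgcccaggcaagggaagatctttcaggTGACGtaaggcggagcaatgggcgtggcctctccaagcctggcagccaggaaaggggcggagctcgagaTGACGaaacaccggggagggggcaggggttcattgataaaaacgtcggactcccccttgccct

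Plk2, chr13:110394794-110395043, plus strand: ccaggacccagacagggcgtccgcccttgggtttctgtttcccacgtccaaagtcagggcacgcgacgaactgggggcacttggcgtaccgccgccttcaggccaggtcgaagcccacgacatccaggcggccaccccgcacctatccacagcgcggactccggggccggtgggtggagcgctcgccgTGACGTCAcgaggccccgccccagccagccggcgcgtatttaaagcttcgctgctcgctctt

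The Plk2 window held the palindrome TGACGTCA from base 62 to base 55 before the start, in which cores on both strands overlap. Among all 32851 mouse promoter windows of this length, 1.55% held TGACGTCA and 17.8% held TGACG. Plk3 had TGACG at 132 and at 63 bases before the start. The Pim3 window had no TGACG and held CCAAT on the opposite strand at 113 and at 73 bases before the start, a motif found in 33.8% of all windows. Both windows of Pim1 and the window of Trib2 were without any of the motifs searched, and 1 of the 6 windows of Sgk1 had TGACG. Other windows of Sgk1 held CCAAT, at 227 bases before the start in 1 and at 226 and 23 in another. The STAT motif TTCNNNGAA, present in 7.02% of windows, was found among these genes in 1 window of Sgk1. A match describes letters in the window and no binding was measured here.

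Trib1 had the largest ratio among the 7 genes, at signals close to the filter. Its main probe set gave 16.8 untreated, 97.3 after 1 h and 118.0 after 2 h. Both ISO arrays were above the untreated one, by 5.79-fold at 1 h and 7.02-fold at 2 h. The log2 ratios of 2.53 and 2.81 ranked 14 among 6896 genes at both times. Around the 1000 genes nearest in mean signal the robust spread of log2 ratios was 0.25 at 1 h and 0.34 at 2 h. Trib1 passed the signal filter only through the 2 h array, so the filter itself required a rise. Raising every signal under 100 to 100 brought it to 0.00 at 1 h and 0.24 at 2 h, which ended the call, and adding 32 to all signals brought it to 1.41 and 1.62. A second probe set had signals of 10.5, 19.1 and 18.3, in the same direction and far below 100.

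**Figure D1:**
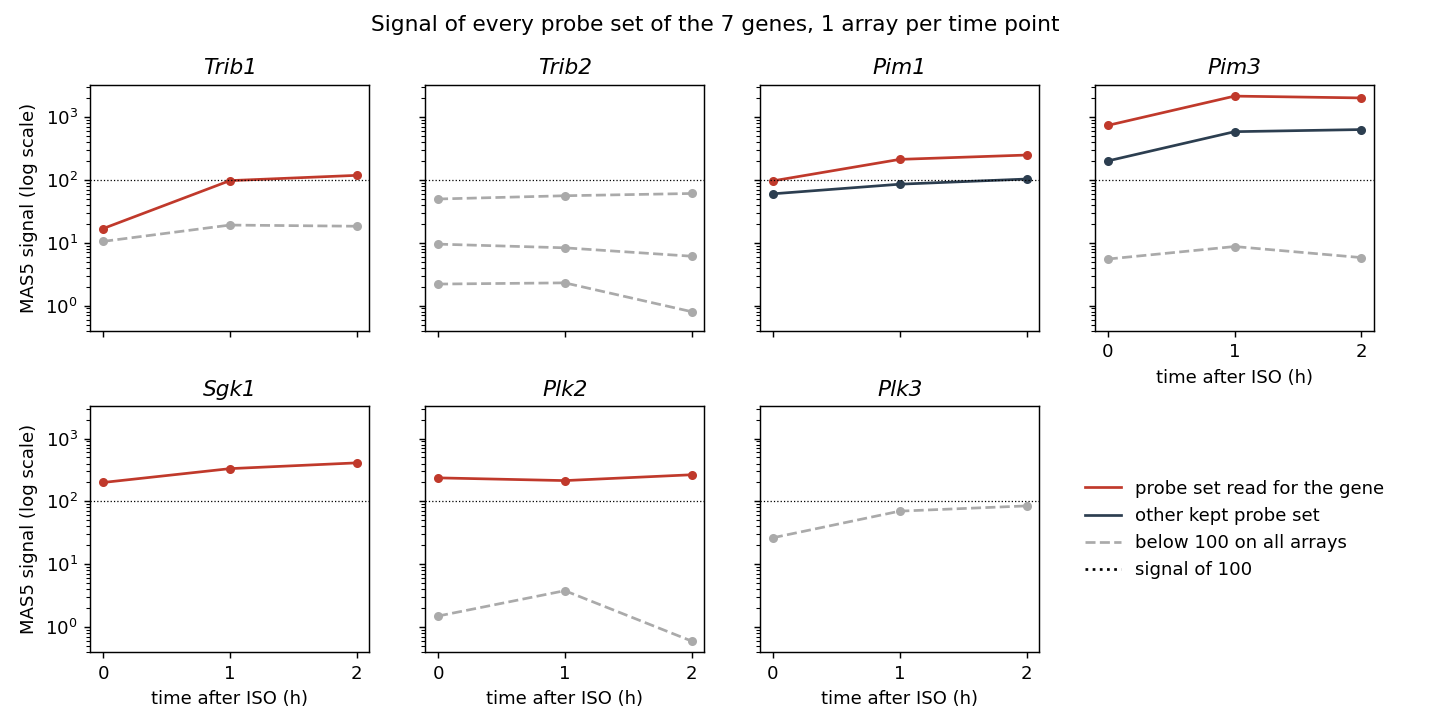
MAS5 signal (vertical axis, log scale) of all 14 probe sets against hours of ISO (horizontal axis), 1 panel per gene and 1 array per time point, without error bars. Red lines are the probe set read for the gene and dashed grey lines those below 100 on all arrays. Trib1 climbs from 16.8 to 118.0 and Pim3 from 735.6 to 2011.0, whereas Plk2 ends at 265.3 from 236.8.

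Trib2 was on the array with 3 probe sets, the brightest of which had signals of 49.6, 55.9 and 60.7 at 0, 1 and 2 h. Its log2 ratios were 0.17 at 1 h and 0.29 at 2 h. The other probe sets of Trib2 never exceeded 9.5 and had lower signals at 2 h than at 0 h. Trib3, the remaining Tribbles gene and not in the set, binds AKT and is known as a stress-response gene. Its main probe set had signals of 673.1, 638.3 and 456.6, and its other probe set had 609.5, 529.5 and 343.7. The 2 h array was the lowest on both, with log2 ratios to 0 h of -0.56 and -0.83. The second of these is past 1.74-fold and the first, from which the gene was read, is not.

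Pim1 and Pim3 had larger signals after ISO than before on every kept probe set. Each kept probe set of Pim1 was below 100 at 0 h, so for Pim1 the filter itself required a rise. On the probe set read for the gene, Pim3 went from 735.6 untreated to 2150.0 after 1 h and 2011.0 after 2 h, which is 2.92-fold and 2.73-fold. Its suffix marks a probe set that may share sequence with other transcripts. A second one without that mark had 200.1, 584.2 and 631.4. The log2 ratios at 1 h were 1.55 on both, and those at 2 h were 1.45 and 1.66. From 1 to 2 h the brighter one was lower, with a log2 ratio of -0.10, and the other was higher, with 0.11, so no direction can be given for the second hour. The last probe set of Pim3 stayed at or below 8.7.

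Pim1 started just below the filter, with signals of 96.4, 211.8 and 248.2 at 0, 1 and 2 h. Both ISO arrays were above 0 h, by 2.20-fold and 2.57-fold, at log2 ratios of 1.14 and 1.36. The dimmer kept probe set of Pim1 had signals of 60.0, 85.3 and 103.1, with smaller log2 ratios of 0.51 and 0.78 that did not reach 0.8. Pim1 was still past 1.74-fold when its 2 kept probe sets were combined by their median, at 0.82 and 1.07, and with signals below 100 set to 100, at 1.08 and 1.31. Pim2, the remaining PIM gene, had signals of 24.0, 25.9 and 29.5 and was not read. Pim1 and Pim3 ranked 70 and 50 among all genes at 1 h and 84 and 80 at 2 h. The robust spread among genes of like signal was 0.17 for Pim1 and 0.11 for Pim3 at 1 h, and 0.25 and 0.18 at 2 h.

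Sgk1 passed the threshold at 2 h and not at 1 h. Its single probe set had signals of 200, 332.0 and 410.2, all above 100, and each array was above the one before. It reached 1.66-fold after the first hour, a log2 ratio of 0.73, and 2.05-fold after the second, a log2 ratio of 1.04. Sgk1 ranked 120 at 1 h, where 109 genes were past the threshold, and scaling the arrays to the same median put it at 0.83, past it. The robust spread among genes of like signal was 0.15 at 1 h and 0.24 at 2 h. Its relatives were not read: the highest signal of any probe set was 14.2 for Sgk2 and 90.9 for Sgk3.

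Of the polo-like kinases in the set, Plk2 was read and Plk3 was not. Plk2 had signals of 236.8, 214.3 and 265.3 at 0, 1 and 2 h on its kept probe set. The 1 h array was the lowest and the 2 h array the highest, and the log2 ratios of -0.14 and 0.16 were no larger than the robust spread of 0.16 at 1 h and 0.25 at 2 h among genes of like signal. The other probe set of Plk2 did not exceed 3.8. Plk3 had 1 probe set, with signals of 26.4, 70.0 and 84.8. Both ISO arrays were above 0 h, with log2 ratios of 1.41 and 1.68 that were not counted because the signal stayed under 100. At the filter, Trib1 with a highest signal of 118.0 was just inside and Plk3 with 84.8 just outside. Had the filter been 75, a value chosen after these signals were seen, Plk3 would have been read and counted as higher at both times.

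Plk1 and Plk4, the cell-cycle members of the family, were read and not past 1.74-fold. Plk1 had signals of 157.7, 121.9 and 99.7, which at 2 h is a log2 ratio of -0.66. The 3 kept probe sets of Plk4 had log2 ratios between -0.55 and -0.16 at 2 h, and at 1 h they ranged from -0.52 to 0.13. Plk5 did not exceed 4.7. The 6 kept probe sets of Trib3, Plk1 and Plk4 all had a lower signal at 2 h than at 0 h, as did 58.2% of all 11317 kept probe sets. They stand for only 3 genes, all 3 below 0 at 2 h, as were 61.4% of all genes read. One probe set, of Trib3, was past 1.74-fold. By gene 0 of the 3 were called lower, where 0.812% of all genes were. No PIM or SGK gene outside the set had a kept probe set. Over all 6896 genes the median log2 ratio at 2 h was -0.07.

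**Figure D2:**
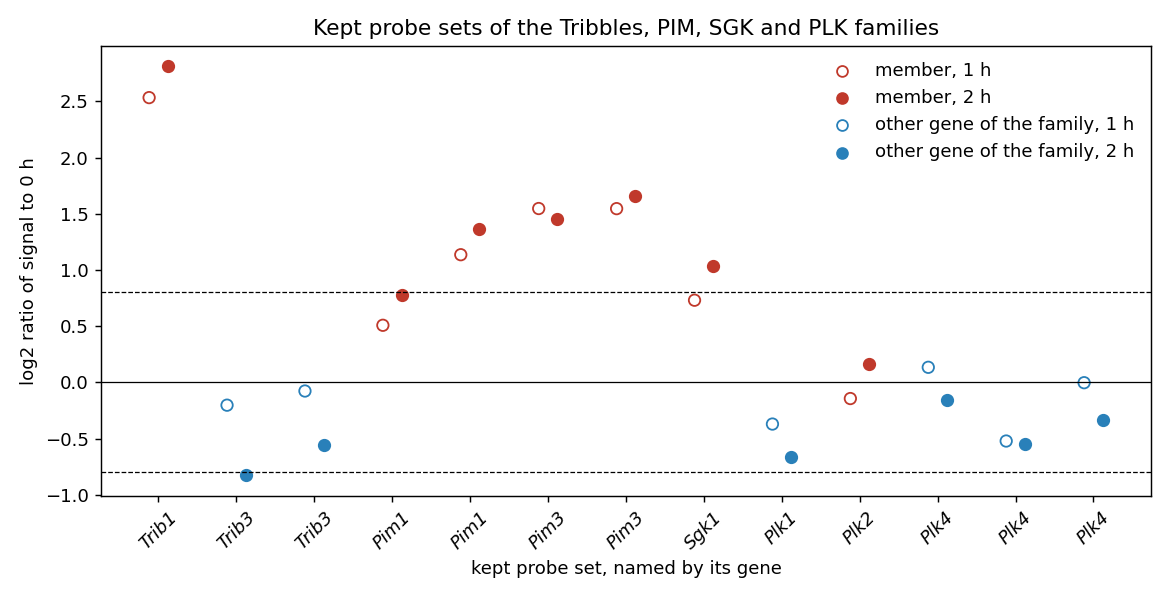
Log2 ratio of signal to 0 h (vertical axis) for kept probe sets in 4 kinase families, named by gene (horizontal axis), with open points for 1 h and filled points for 2 h and dashed lines at 0.8 and -0.8. Members of the set are red and other genes of the families blue, 1 array per time point. All 6 blue probe sets lie below 0 at 2 h, down to -0.83 for Trib3.

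Counted by gene, Trib1, Pim1 and Pim3 were higher at 1 h, 3 of 5 read, and none was lower. Over all genes read, 1.58% were called higher and 0.218% lower at 1 h. At 2 h Trib1, Pim1, Pim3 and Sgk1 were higher, 4 of 5, and none was lower, where the shares of all genes were 2.73% and 0.812%. The set was selected on these contrasts, and Trib1 and Pim1 passed the filter only through the ISO arrays, so nothing is read from these counts. For 2 h over 1 h, none of the 5 was past 1.74-fold in either direction, against 0.667% of all genes higher and 0.319% lower. The log2 ratios for that hour were 0.28 for Trib1, 0.23 for Pim1, -0.10 for Pim3, 0.31 for Sgk1 and 0.31 for Plk2.

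On the log2 scale and on the probe sets read, the ratio at 1 h was 90.1% of that at 2 h for Trib1, 83.3% for Pim1, 107% for Pim3 and 70.6% for Sgk1. For Trib1 this share depends on signals under 100, since raising those to 100 left 0.00 at 1 h of 0.24 at 2 h. The dimmer Pim1 probe set had 0.51 at 1 h of 0.78 at 2 h. The second kept probe set of Pim3 had 1.55 at 1 h of 1.66 at 2 h, so its ratio was not larger at 1 h. In order of log2 ratio at 1 h the genes read were Trib1, Pim3, Pim1, Sgk1 and Plk2, and at 2 h the order was the same, but Trib1 fell behind Sgk1 at both times with signals under 100 raised to 100. Pim3 and Pim1 were separated at 2 h by 1.45 against 1.36, which is less than the spread among genes of like signal, so that spread does not separate them.

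**Figure D3:**
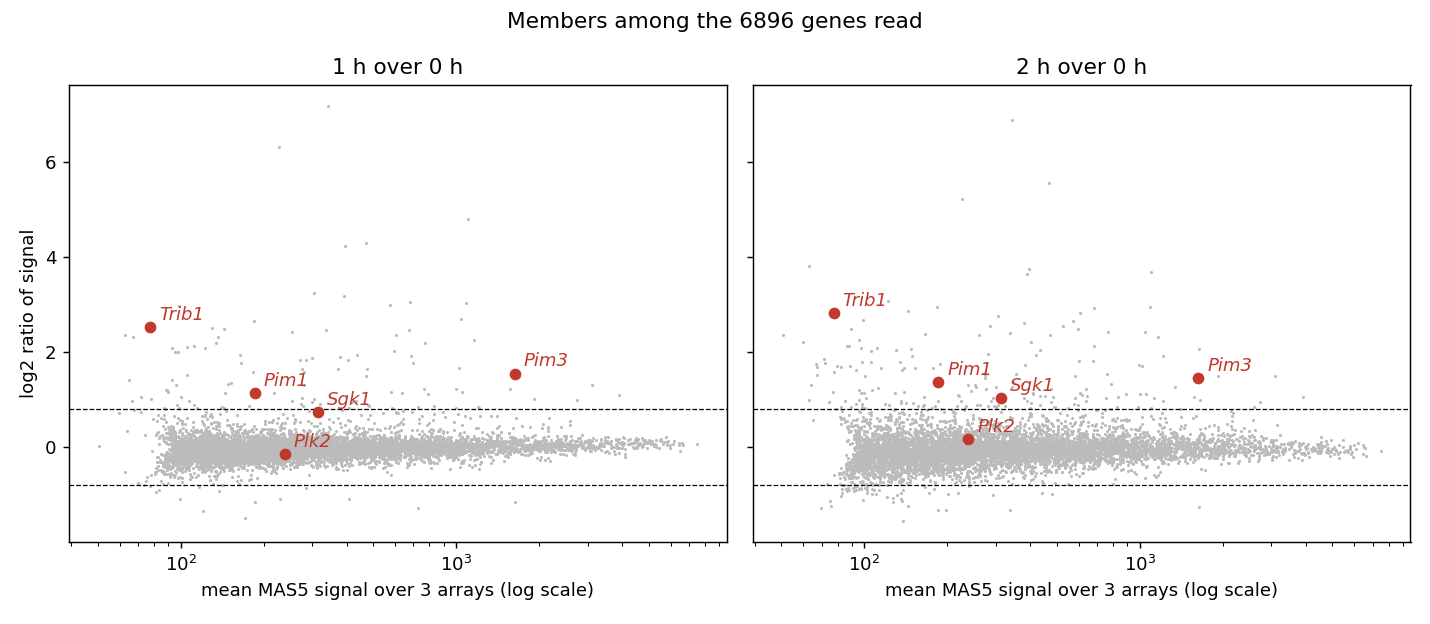
Log2 ratio of signal at 1 h (left) and 2 h (right) over 0 h (vertical axis) against mean MAS5 signal over the 3 arrays (horizontal axis, log scale) for 6896 genes, 1 grey point each. Red points are the 5 genes of the set that were read and dashed lines mark 0.8 and -0.8. Trib1 lies at low mean signal at 2.53 and 2.81, Pim3 at high mean signal at 1.55 and 1.45, and Plk2 within the cloud.

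The genes nearest to each in log2 ratio at 1 and 2 h, by Euclidean distance over both ratios of the 3 arrays, were as follows. Nearest to Trib1 were Gem, a small GTPase of the RGK family, at a distance of 0.06, Pck1, an enzyme of glyceroneogenesis, at 0.18, and Ackr3, an atypical chemokine receptor, at 0.18. Gem and Ackr3 had signals of 31.1 and 36.7 at 0 h, so their ratios, like that of Trib1, rest on a 0 h signal under 100. Pck1 had 137.3 at 0 h. Pim3 was nearest to Cish, a feedback inhibitor of cytokine signalling, at 0.04, then to Atf3, a stress-induced transcription factor, at 0.13 and Rasd1, a Ras-like gene, at 0.155. Cish had signals of 82.2, 245.9 and 221.2, with the highest at 1 h as for the brighter Pim3 probe set. For Pim1 the nearest were Tuba4a, a tubulin, at 0.04, Bag3, a co-chaperone, at 0.13 and Skil, a SMAD corepressor, at 0.14. Sgk1 lay close to Pfkfb3, which makes an activator of glycolysis, at 0.02, C9orf72 at 0.04 and Klb, the co-receptor for FGF21, at 0.06. Around Sgk1, 7 genes lay within 0.1, and around Plk2 128 did, so the neighbours of Plk2 are not informative. For the other genes, each distance named was below the robust spread at 2 h among genes of like signal. The order of their neighbours is therefore not read as a result. Those of Pim3 were found with its brighter probe set only.

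Among the genes for proteins that work with Tribbles, 1 was past 1.74-fold. So few of all genes pass that the lack of a call in the others is not a result about this list. Of 10 listed, 9 had a probe set named here and 8 were read. Cebpb, a transcription factor of adipogenesis, had signals of 2254.0, 4795.9 and 4690.5 at 0, 1 and 2 h, log2 ratios of 1.09 and 1.06, and was the only one past 1.74-fold, 1 of 8 against 1.58% of all genes at 1 h and 2.73% at 2 h. A dimmer probe set of Cebpb gave larger log2 ratios of 2.12 and 2.09, and the median over its kept probe sets was 1.61 and 1.57. Cop1, the ubiquitin ligase, was at 0.08 and 0.01, Cebpa at 0.30 and 0.42, Map2k1 at 0.01 and 0.04 and Akt2 at 0.14 and 0.05. These 8 genes had median log2 ratios of 0.09 and 0.05 at the 2 times, against -0.02 and -0.07 over all genes.

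Of 18 genes that induce PIM transcription or encode PIM substrates, 16 were read. None was past 1.74-fold at 1 h, where 1.58% of all genes were higher and 0.218% lower. At 2 h 2 were higher, where 2.73% of all genes were. Stat3, a transcription factor downstream of IL-6 family cytokines, had signals of 326.5, 368.8 and 606.6. Its log2 ratios were 0.18 at 1 h and 0.89 at 2 h, with 0.72 for the second hour alone. Cdkn1a, the cell-cycle inhibitor p21, had signals of 721.7, 931.1 and 1306.0 and log2 ratios of 0.37 and 0.86. Neither Stat3 nor Cdkn1a passes at a threshold of 2-fold. Bad, an apoptotic substrate of PIM kinases, was at -0.21 and -0.14, and the cytokine receptor subunit Il6st was at 0.01 and -0.15. The median was 0.01 at 1 h and -0.06 at 2 h, against -0.02 and -0.07 over all genes.

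Among 18 regulators and targets of SGK1, including genes that glucocorticoids induce, 15 were read and none was past 1.74-fold at either time. The shares of all genes were 1.58% higher and 0.218% lower at 1 h, and 2.73% and 0.812% at 2 h. A count of none in 15 is near those shares and is not a result about this list. Tsc22d3, a classic glucocorticoid-induced gene, went from 174.1 to 131.2 and 106.5, or -0.71 on the log2 scale at 2 h. Fkbp5, another such gene, was at -0.01 and 0.06, and the glucocorticoid receptor gene Nr3c1 was at -0.06 and -0.18. Foxo1, whose product SGK1 phosphorylates, was at 0.37 and 0.53. Nedd4l, which encodes the ubiquitin ligase that SGK1 inhibits, was at -0.02 and -0.11. The list had a median of -0.02 at 1 h and 0.01 at 2 h, against -0.02 and -0.07 over all genes.

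For PLK2 and PLK3, 9 of 12 listed partners had a probe set named here and 7 were read. None was past 1.74-fold at 1 h, where 1.58% of all genes were higher and 0.218% lower. At 2 h Cdkn1a was higher and Sipa1l1 lower, where 2.73% of all genes were higher and 0.812% lower. Cdkn1a is on both lists and is the gene already counted among the PIM inducers and substrates. The list medians were 0.16 and -0.01, against -0.02 and -0.07 over all genes. Sipa1l1, which encodes a synaptic Rap regulator that PLK2 phosphorylates, went from 124.3 to 100.8 and 68.0, which is -0.87 on the log2 scale at 2 h. That call ended with signals below 100 set to 100 (-0.31), with 32 added (-0.64), after cyclic loess (-0.79), with the median of its kept probe sets (-0.70) and at a threshold of 2-fold. Mdm2 and Gadd45a, genes of the p53 response, were at 0.34 and 0.19 at 1 h and at 0.27 and -0.01 at 2 h. Of 9 housekeeping genes none was past 1.74-fold, with log2 ratios from -0.34 to 0.18 at 1 h.

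**Figure D4:**
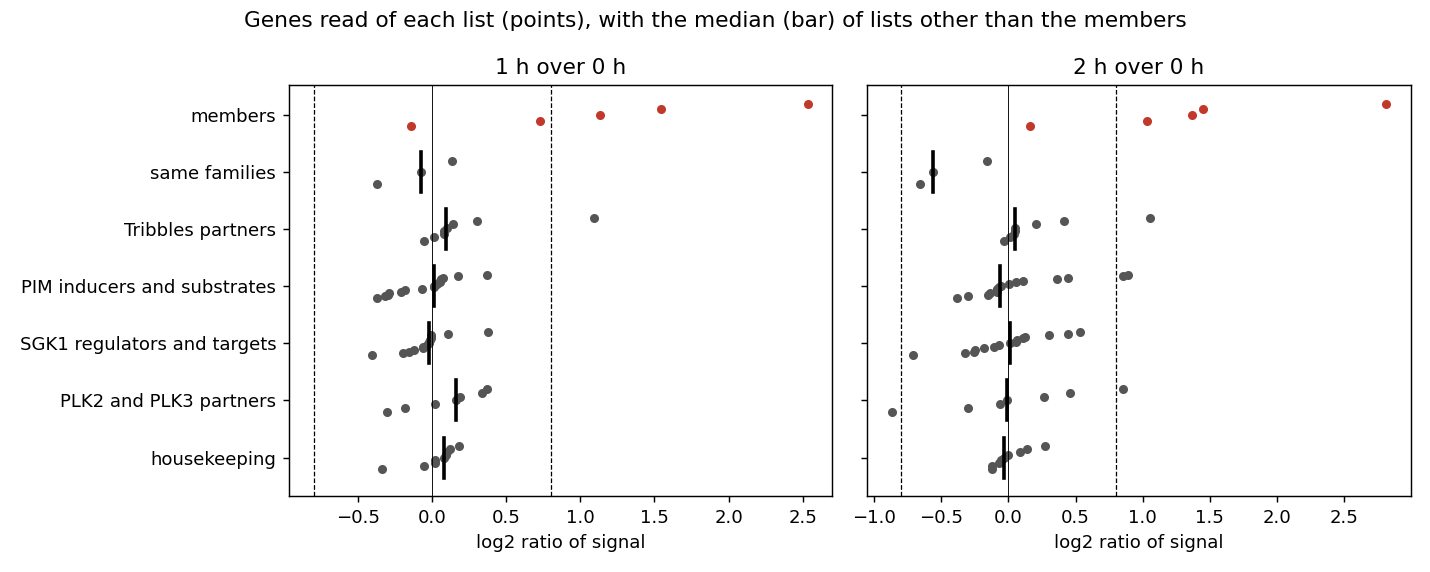
Log2 ratio of signal at 1 h (left) and 2 h (right) over 0 h (horizontal axis) for the genes read of each list (1 row per list, 1 point per gene, 1 array per time point). Bars are medians of the lists other than the members and dashed lines mark 0.8 and -0.8. The lists plotted are the members, the other genes of their families, the partner lists and the housekeeping genes. Apart from the red members, Cebpb at 1.09 is the only plotted point past a line at 1 h.

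**Figure D5:**
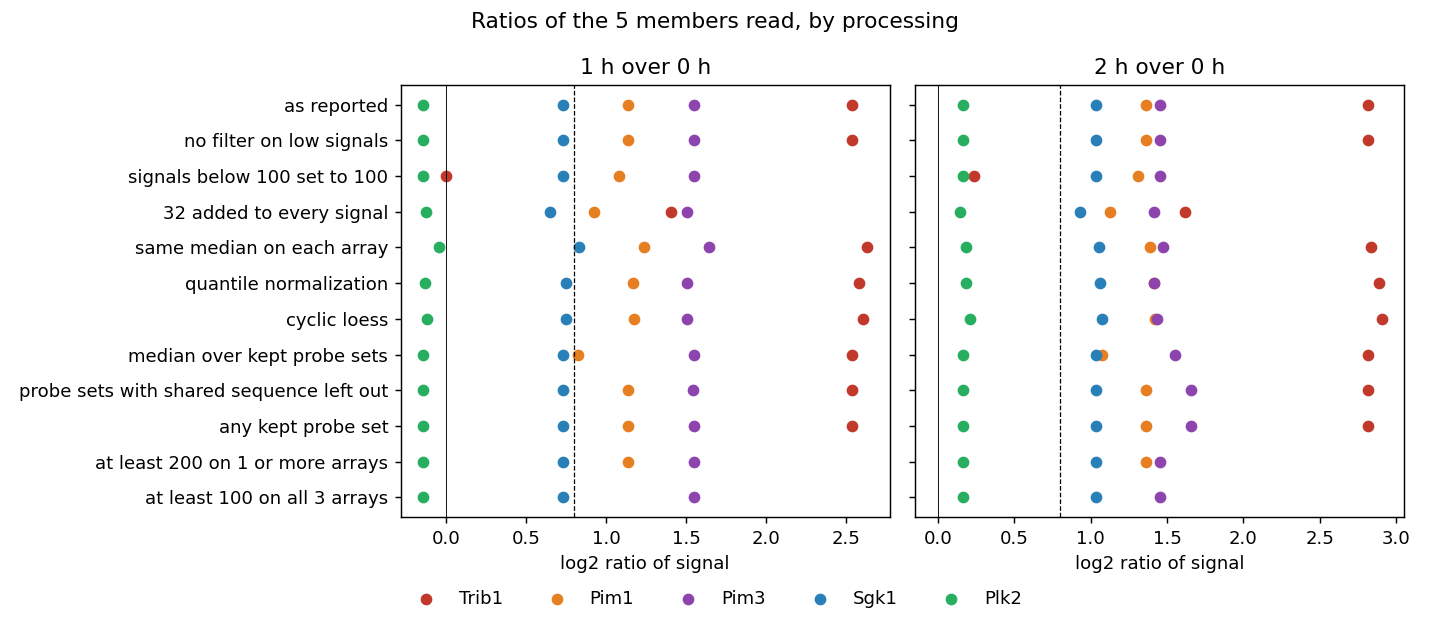
Log2 ratio of signal at 1 h (left) and 2 h (right) over 0 h (horizontal axis) of the 5 members read, under each way of processing (rows), with 1 colour per gene and a dashed line at 0.8. A missing point means that the gene was not read. Trib1 moves from 2.53 to 0.00 at 1 h with signals below 100 set to 100, and Pim3 stays between 1.51 and 1.65.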

How the data were processed

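The authors hybridized labelled cRNA to Affymetrix Mouse Genome arrays and deposited 1 linear intensity per probe set for each of them, made with MAS5 according to the submitters' processing notes. On every array these intensities average 100.0 once 2% has been trimmed from each end, so all changes are relative to that mean, and the methods' exclusion of absent calls and values below 100 is not applied in them. The number of arrays, 1 per time point, limits the precision.

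Probe sets were named through the array's public annotation. Of 45101, 34958 carried 1 symbol, 932 carried more than 1 and were left out, and 9211 had no name here. No probe set with several symbols held a member. Symbols were checked by gene identifier against RefSeq (34754 matched, 0 changed), and a few listed genes are not analysed here. For each gene the kept probe set whose mean over the arrays was highest gave the value. Signals of 0 became 0.1, and log2 ratios were taken with numpy 2.4.6 and pandas 2.3.3 under Python 3.11.15. The robust spread is the median absolute deviation, times 1.4826, over the 1000 genes nearest in mean signal. It holds real change as well as noise. The calculation was tested on simulated data. Changes larger than the threshold were planted there, only in genes with at least 100 at 0 h. That test therefore does not cover genes that start below 100, such as Trib1 and Pim1, or ratios near the threshold, such as that of Sgk1 at 1 h.

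The members, lists and threshold were chosen with earlier results of these data known. The rule for named genes took all members with every probe set, the other genes of the families, list genes past the threshold or with a described role, and the 3 nearest patterns of each member. The 12 alternatives covered filters, low signals, scaling (cyclic loess from limma 3.58.1 among them, under R 4.3.3), choice of probe set and a 2-fold threshold, and 1 filter was added after the data were seen. A comparison with all kinase genes was not run, since no gene descriptions were used here. Figures were drawn with matplotlib 3.10.9.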

Additional observations from a re-analysis of the deposited data

How the results depend on the processing

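With a signal of at least 100 required on all 3 arrays, Trib1 and Pim1 were not read, and the count of members higher fell to 1 at 1 h (Pim3) and 2 at 2 h (Pim3 and Sgk1), where 0.907% and 1.77% of all genes were higher. Under the other alternatives the count at 1 h was between 2 and 4 and that at 2 h between 3 and 5, and no member was lower or past the threshold for 2 h over 1 h. Without a filter Plk3 joined the members higher at both times, and the share of all genes higher was then 12.0% at 1 h and 13.2% at 2 h. Trib1 lost its calls with signals below 100 set to 100 (0.00 and 0.24) and was not read with at least 200 on 1 or more arrays. Sgk1 gained a call at 1 h with the same median on each array (0.83), a scaling that put the median of all genes at 0.08 in place of -0.02. Pim3 ranged from 1.51 to 1.65 at 1 h and from 1.41 to 1.66 at 2 h, and Pim1, where read, from 0.82 to 1.23 and from 1.07 to 1.42. Trib3 was past the threshold at 2 h only with any kept probe set (-0.83). No called gene reversed. Dim signals limit Trib1, Trib2 and Plk3 most. No paired analysis was possible because each time point has 1 array.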
